A study of Mus musculus with 44 samples.

Results

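Of the 2569 PCGF1 peaks deposited for cultured mouse blood progenitors, 490 (19.1%) were single peaks on RING1B with H3K27me3. They were chosen by overlap alone: each met both a RING1B peak and an H3K27me3 region by 1 bp or more, and no other PCGF1 peak lay on the RING1B peak it met. A dense block of 48 PCGF1 peaks on chromosome 8, 126061200 to 126152230 (build mm9), was left out. Presence on RING1B and on H3K27me3, and being alone on RING1B, were therefore fixed by the choice and are not results. The 490 peaks were 25.8% (95% interval 23.9 to 27.8) of the 1898 PCGF1 peaks on RING1B outside the block. The closest comparison sets were 480 clustered peaks, which shared a RING1B peak with H3K27me3 with other PCGF1 peaks, and 613 single peaks on RING1B that touched no H3K27me3 region.

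PCGF1 is the subunit that sets apart one variant form of Polycomb repressive complex 1, in which KDM2B, a protein that binds unmethylated CpG-rich DNA, brings the complex to CpG islands. RING1B is the ubiquitin ligase shared by all forms of that complex and places ubiquitin on histone H2A. H3K27me3, the trimethyl mark on lysine 27 of histone H3, is written by Polycomb repressive complex 2, and the ubiquitin mark and the trimethyl mark can each help to recruit the complex that writes the other. In blood progenitors these complexes are known for keeping genes of other lineages and developmental stages silent.

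The 44 libraries of the series fall into 23 groups, and 6 of them, a pair behind each of 3 lists, gave the values used here. PCGF1 was mapped by its tag, with an anti m2_FLAG antibody, in Pcgf1 -/- IdHP cells to which FLAG-PCGF1 had been added. RING1B (in-house antibody) and H3K27me3 were mapped in Pcgf1 fl/fl IdHP cells. The labels give all of these cells as bone marrow derived, of strain B6CBAF1/J, kept on TSt4 stroma with IL7, SCF and Fl3L to passage 15 to 18, and do not expand the name IdHP. No list sets Pcgf1 -/- beside Pcgf1 fl/fl cells, and the other 38 libraries were not analysed here. What drives the tagged protein, and how its amount compares with the natural one, is not given in the sources used here, and each overlap sets 2 cell populations side by side.

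The 2 libraries behind a list are not told apart in it, so no value has a replicate error, the read depth is unknown, and no test between sets of peaks was run. A median is given with its interquartile range and an exact order-statistic 95% interval, and a share with an exact binomial (Clopper-Pearson) 95% interval. Both cover the number of peaks only, and neighbouring peaks are not independent. Fold is the authors' mean enrichment of a peak over background, −log10 q is their significance of the peak, and height is the highest H3K27me3 signal in a region, on a scale that is not stated.

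The single peaks were wide for PCGF1 and only slightly higher in fold than the rest. The members were 474 bp wide at the median (quartiles 188 and 1028, interval 406 to 539), against 215 bp (interval 199 to 226) in the single peaks outside H3K27me3 and 273.5 bp (interval 246 to 317) in the clustered peaks. None of these 3 intervals overlapped another. Where PCGF1 peaks had to reach a −log10 q of 2, the rule gave 399 single peaks, 310 of them members and 89 others, and their median width was 746 bp. Widths over 1000 bp were found in 125 of the 490 peaks, or 25.5% (21.7 to 29.6), where 10.0% of all PCGF1 peaks were that wide. The share was 4.40% (2.92 to 6.34) in the single peaks outside H3K27me3 and 11.3% (8.57 to 14.4) in the clustered peaks. At the other end, 47 of the 490 (9.59%) were up to 100 bp wide, against 17.8% of all PCGF1 peaks. The share was 18.1% in the single peaks outside H3K27me3 and 16.7% in the clustered peaks.

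**Figure D1:**
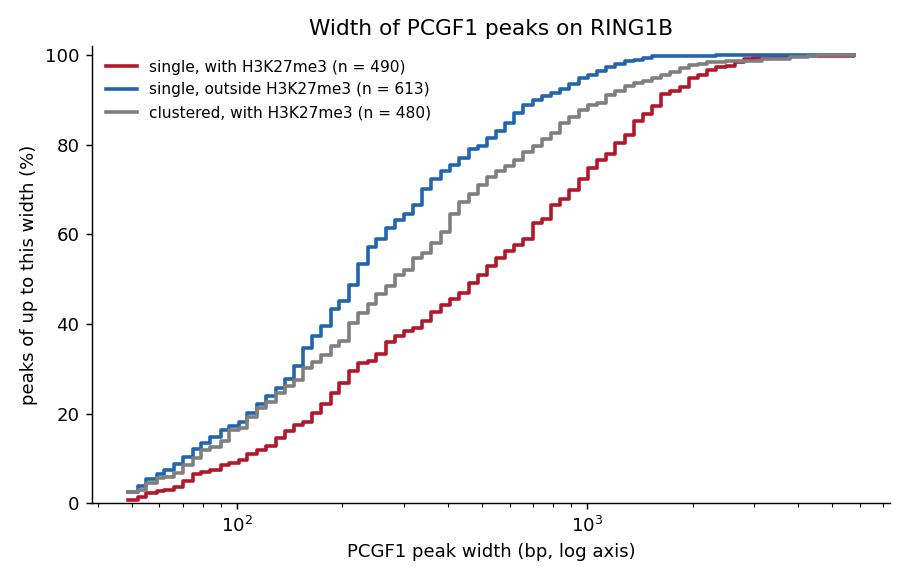
Share of PCGF1 peaks (y axis, percent) of up to a given width (x axis, bp, log axis), for the 490 single peaks with H3K27me3, the 613 single peaks outside it and the 480 clustered peaks. The curve of the single peaks with H3K27me3 lies to the right, with a median of 474 bp against 215 and 273.5 bp.

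The extra width was also seen among RING1B peaks of like width where these were over 1000 bp. On RING1B peaks of 1000 to 2000 bp the single peaks with H3K27me3 had a median PCGF1 width of 559 bp (n = 82), and those outside the mark 184.5 bp (n = 204). On RING1B peaks of 2000 to 5000 bp the medians were 556 bp (n = 170) and 245 bp (n = 139), and above 5000 bp they were 522 bp (n = 127) and 262 bp (n = 45). On those of up to 1000 bp the medians were 262 bp (interval 188 to 410, n = 111) and 211 bp (interval 192 to 232, n = 225), and the intervals overlapped. Over all members the rank correlation between the width of the PCGF1 peak and that of the RING1B peak under it was 0.17 (Spearman, n = 490), and 0.02 over the 443 members on RING1B peaks over 400 bp, so it rested on the short sites. The correlations given here are descriptions across sites of the same libraries.

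A RING1B peak with clustered PCGF1 held more PCGF1 bases in all than one with a single peak. The 181 RING1B peaks with H3K27me3 that carried 2 or more of the clustered peaks had a median of 921 bp (interquartile range 532 to 1411) of PCGF1 when their peaks were summed, against the 474 bp of a single peak. The widest PCGF1 peak on each had a median of 607 bp (381 to 1065). The median of the widest, with an interval of 490 to 717 bp, was above the 474 bp of the single peaks, though the intervals overlapped. The choice favours a larger sum and a larger widest peak in a cluster, which holds 2 or more peaks. RING1B width was not matched here, and its median was 7035.5 bp under the clustered peaks and 2691.5 bp under the members.

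The median PCGF1 fold of the members was 4.90 (interquartile range 4.65 to 5.23, interval 4.87 to 4.95), with a range of 1.77 to 7.40. It was 4.76 (interval 4.73 to 4.79) in the single peaks outside H3K27me3 and 4.86 (interval 4.83 to 4.91) in the clustered peaks. These differences were small beside the spread within each set, and the interval of the clustered peaks overlapped that of the members. Taken per RING1B peak, the highest PCGF1 fold of a cluster had a median of 5.14 (interval 5.06 to 5.19, n = 181), above that of the members with no overlap; it is the top of 2 or more peaks. Within the members, fold rose with width: the median was 4.63 in the 47 peaks of up to 100 bp, 4.80 in the 120 of 200 to 500 bp, 5.32 in the 103 of 1000 to 2000 bp and 5.65 in the 22 above 2000 bp. The rank correlation of width with fold was 0.64 (Spearman, n = 490), against 0.30 in the single peaks outside H3K27me3 (n = 613) and 0.42 in the clustered peaks (n = 480). The RING1B fold under them did not climb in step, with medians between 3.36 and 3.63 over the 6 width classes.

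The RING1B peak under a member spanned, at the median, 2691.5 bp (interquartile range 1120 to 5110) and had a median fold of 3.57 (3.19 to 4.46). Those under the single peaks outside H3K27me3 were narrower, 1317 bp, with a fold of 3.43, and those under the clustered peaks were wider, 7035.5 bp, with a fold of 4.80. The choice bears on these widths, since a wide RING1B peak has more room for another PCGF1 peak. A RING1B fold of at least 5 was found under 89 of the 490 members, or 18.2% (14.8 to 21.9), where 3.73% of all RING1B peaks reached it. Over all PCGF1 peaks on RING1B the share was 19.4% (17.6 to 21.2), so the members were at the share of PCGF1 sites in general. Under the single peaks outside H3K27me3 it was 3.75%, and under the clustered peaks 47.3%.

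Set against other RING1B peaks on H3K27me3 of like width, RING1B with a single PCGF1 peak stood higher in fold among the wider peaks. Of the RING1B peaks that touched H3K27me3, 10251 met no PCGF1 peak, 488 met 1 member, 222 met several PCGF1 peaks and 90 met 1 PCGF1 peak that was not a member. In peaks of up to 1000 bp the median RING1B fold was 3.05 both with no PCGF1 peak (n = 4916) and with a member (n = 111). In those of 1000 to 2000 bp it was 3.17 (interval 3.16 to 3.18, n = 2114) without PCGF1 and 3.29 (interval 3.19 to 3.36, n = 80) with a member. In those of 2000 to 5000 bp it was 3.37 (n = 2074) without PCGF1 and 3.69 (interval 3.55 to 3.88, n = 170) with a member. Above 5000 bp it was 3.85 (interval 3.80 to 3.88, n = 1147) without PCGF1, 5.09 (interval 4.71 to 5.58, n = 127) with a member and 5.62 (interval 5.20 to 5.88, n = 130) with several. In the widest class the intervals with 1 and with several PCGF1 peaks overlapped, and both lay above that of RING1B without PCGF1. RING1B peaks with 1 PCGF1 peak that was not a member had median folds of 3.63 (n = 11), 3.83 (n = 36) and 4.52 (n = 39) in the 3 classes above 1000 bp. A higher fold than without PCGF1 was therefore not particular to the members. The median widths in the widest class were 7530 bp without PCGF1, 7772 bp with a member and 9493.5 bp with several, so the RING1B peaks with several were also wider.

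**Figure D2:**
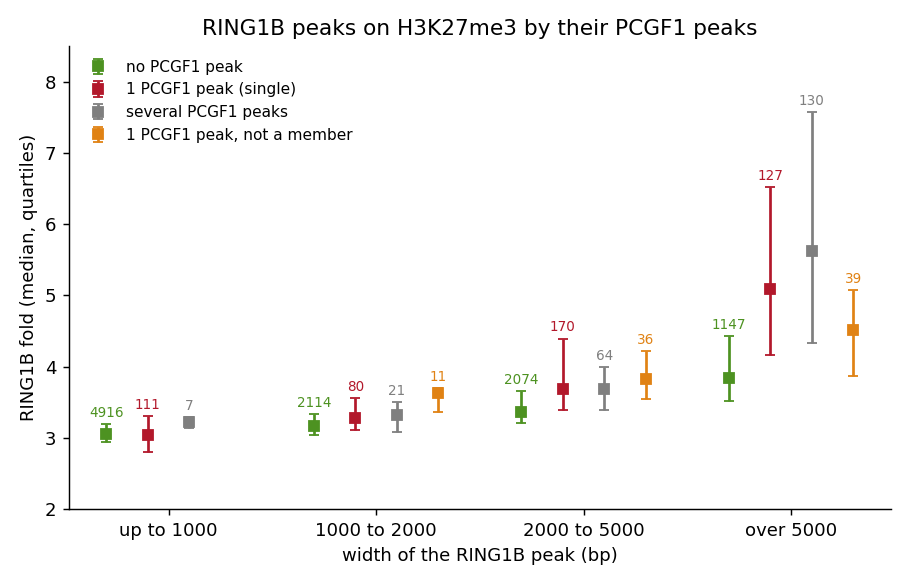
RING1B fold (y axis; squares are medians, bars are quartiles) of RING1B peaks on H3K27me3 in 4 width classes (x axis, bp), with no PCGF1 peak, 1 member, several, or 1 PCGF1 peak that is not a member (not drawn in the first class, for too few peaks); the numbers above the bars are RING1B peaks. The medians of the first class are close together, and in the class above 5000 bp they are 3.85, 5.09, 5.62 and 4.52.

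Across members the ranks of PCGF1 fold followed those of RING1B fold and of the mark only weakly. The Spearman correlation of PCGF1 fold with RING1B fold was 0.17 (n = 490) and with H3K27me3 height −0.06. On the values themselves PCGF1 fold and height gave a Pearson correlation of −0.43 (−0.37 over the 455 members of −log10 q under 5), and the 10 tallest sites all had a fold below the members' median. RING1B width and RING1B fold went together much more closely, at 0.76, and RING1B width went with the width of the H3K27me3 region at 0.30, or 0.17 over the 443 members on RING1B peaks over 400 bp.

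The place of PCGF1 within the RING1B peak was described by its centre. The centre of 321 of the 490 members, or 65.5% (61.1 to 69.7), fell in the middle 50% of the RING1B peak. The share was 53.0% (49.0 to 57.0) for the single peaks outside H3K27me3 and 62.7% (58.2 to 67.0) for the clustered peaks. A PCGF1 peak that fills more of the RING1B peak can lie off its middle by less, and the members covered a median of 18.2% of the RING1B peak, the single peaks outside the mark 14.5% and the clustered peaks 3.97%. No value for chance placement was computed. The median distance between the PCGF1 and RING1B centres was 364.5 bp (interquartile range 152 to 889). Wholly inside the RING1B peak lay 365 members (74.5%, 70.4 to 78.3), fewer than the 94.4% of the clustered peaks and close to the 76.2% of the single peaks outside the mark, with 81.4% over all PCGF1 peaks on RING1B. Of the members, 26 (5.31%) had their centre beyond the edge of the RING1B peak, the same as the general share of 5.37% over all PCGF1 peaks on RING1B. The whole RING1B peak was covered from end to end by 20 members (4.08%, 2.51 to 6.23), against 1.91% over all PCGF1 peaks on RING1B. Such cover leaves no room for another PCGF1 peak and so cannot occur in a cluster.

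Split by RING1B width, members lay in the middle 50% in 65.8% (56.2 to 74.5) of cases on RING1B peaks of up to 1000 bp, 54.9% (43.5 to 65.9) at 1000 to 2000 bp, 68.8% (61.3 to 75.7) at 2000 to 5000 bp and 67.7% (58.8 to 75.7) above 5000 bp. For the single peaks outside H3K27me3 the shares were 45.8% (39.1 to 52.5), 62.3% (55.2 to 68.9), 61.2% (52.5 to 69.3) and 22.2% (11.2 to 37.1). The sets were apart in the narrowest and the widest class and overlapped in the middle ones. In the widest class, 39 of the 45 RING1B peaks under the single peaks outside the mark did touch H3K27me3 elsewhere along their length, so there PCGF1 lay on the unmarked stretch of a RING1B peak that was marked in part. The narrowest class holds most of the members of high −log10 q described further on. Leaving out peaks of −log10 q of 5 or more, a choice made after seeing the data, the shares there were 52.5% (41.0 to 63.8, n = 80) for the members and 41.5% (34.6 to 48.5, n = 205) outside the mark, and the intervals overlapped.

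**Figure D3:**
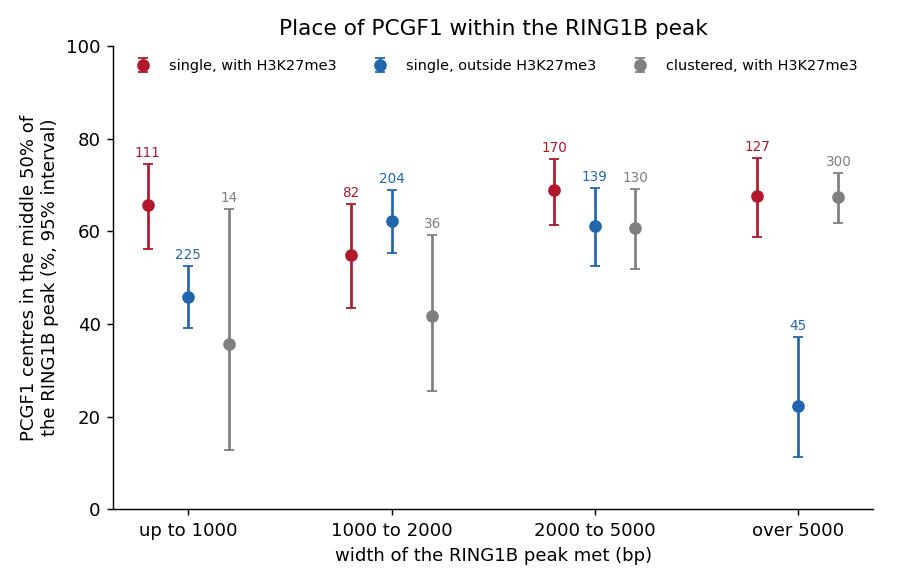
Share of PCGF1 centres in the middle 50% of the RING1B peak (y axis, percent; points with exact 95% intervals) in 4 classes of RING1B width (x axis, bp) for the 3 sets; the numbers are PCGF1 peaks. Members lie at 54.9% to 68.8% in all classes, while the single peaks outside H3K27me3 drop to 22.2% above 5000 bp.

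The H3K27me3 regions met by the members were wide and tall within the deposited list. Their median width was 14970 bp (interquartile range 6753 to 28690) and their median height 157.7 (123 to 194, interval 153 to 165), against a median height of 68.5 over all 135391 regions. Other PCGF1 sites on the mark were alike or more so: the medians were 22290 bp and 179 for the clustered peaks, 13890 bp and 159 for PCGF1 peaks on H3K27me3 without RING1B, and 18780 bp and 170 over all PCGF1 peaks on the mark. The RING1B peak lay wholly inside the mark for 354 members (72.2%, 68.1 to 76.2), against 59.8% for the clustered peaks. The PCGF1 peak did so for 434 members (88.6%, 85.4 to 91.3). That share was 91.9% (90.3 to 93.3) over all PCGF1 peaks on the mark. It was 93.96% (91.4 to 95.9) for the clustered peaks and 92.8% (89.1 to 95.5) for those without RING1B. The members were thus the lowest of these, though only the interval of the clustered peaks did not overlap theirs. The PCGF1 centre of the members was a median of 3851.5 bp from the nearest border of the region, and in 273 members (55.7%, 51.2 to 60.2) it lay in the middle 50% of the region. That share was 54.4% over all PCGF1 peaks on the mark.

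Height rises with the width of a region, so regions were compared within width classes, which matched width only in part. Up to 5000 bp the median widths were 2705 bp with a member, 2390 bp with RING1B alone and 1550 bp with neither. They were 10830, 9110 and 7460 bp in the next class and 31465, 30015 and 26415 bp in the widest. The part of these width differences in the heights was not tested. In regions of up to 5000 bp the median height was 116 (n = 96) with a member, 80.1 (n = 3057) with RING1B and no PCGF1, and 64.5 (n = 110097) with neither. At 5000 to 20000 bp the medians were 143 (n = 195), 108 (n = 2817) and 90.6 (n = 16189). Above 20000 bp they were 178 (n = 184), 144 (n = 954) and 122 (n = 1446). Regions with clustered peaks had medians of 93.4 (n = 25), 155 (n = 78) and 185 (n = 101) in the 3 classes, and those with PCGF1 off RING1B 97.0 (n = 42), 139 (n = 93) and 182 (n = 82). In each class the median was higher with RING1B than with neither, and higher again with any of the 3 kinds of PCGF1 site, so this too was not particular to the members. A region can hold more than 1 kind: 9 regions with a member also held a clustered peak and 51 a PCGF1 peak off RING1B. Counting only the members of −log10 q under 5, the 3 medians with a member were 93.0 (n = 70), 142 (n = 189) and 178 (n = 182), so in the narrow regions the gap to RING1B alone shrank. Since members were chosen by lying on both lists, this describes the regions and is no test of an effect of PCGF1.

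**Figure D4:**
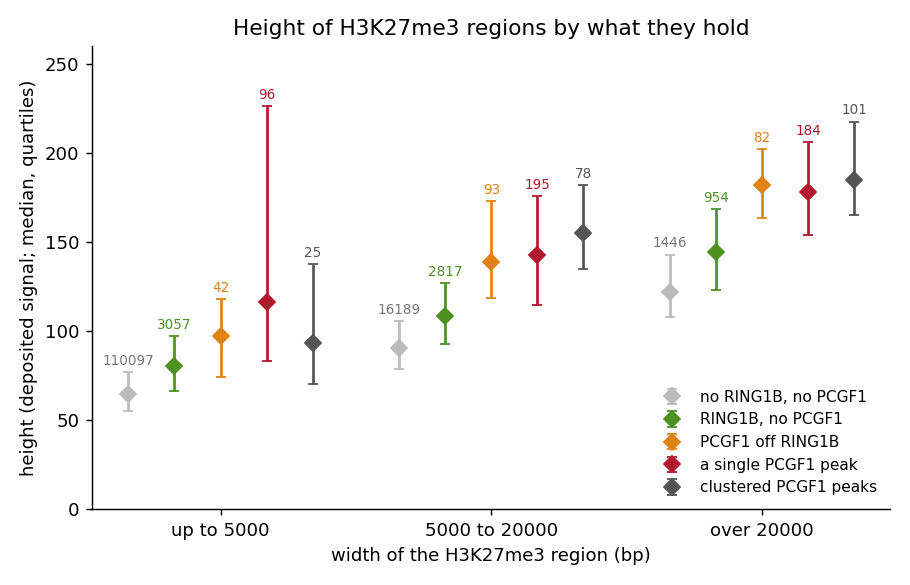
Height of H3K27me3 regions (y axis, deposited signal; diamonds are medians, bars are quartiles) in 3 classes of region width (x axis, bp), for regions with neither protein, with RING1B alone, with PCGF1 off RING1B, with a member and with clustered PCGF1 peaks; the numbers are regions. Regions with a member have medians of 116, 143 and 178, above those with RING1B alone, and above 5000 bp those with clustered peaks are the highest of the 5.

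A member was alone on its RING1B peak but not always alone on the chromosome. The next PCGF1 peak lay a median of 166 kb away (interquartile range 36.1 to 476 kb), and 211 kb away for the single peaks outside H3K27me3. For the clustered peaks, whose near neighbour is fixed by the choice, it was 0.273 kb. Another PCGF1 peak was within 5 kb of 65 members (13.3%, 10.4 to 16.6), and within 1 kb of 56. The share within 5 kb was 11.3% (8.86 to 14.0) in the single peaks outside H3K27me3, with which the members' interval overlapped. Over all PCGF1 peaks, the clustered ones included, it was 48.3%. For single peaks with the mark it fell to 4.51% when PCGF1 peaks had to reach a −log10 q of 2. Of the neighbours of the 65 members, 52 lay on H3K27me3 without touching RING1B, 7 lay on neither, 4 were themselves members, 1 was clustered and 1 was on RING1B outside the mark. In 57 of the 65 the neighbour shared the member's H3K27me3 region. That the neighbour lay off the member's own RING1B peak is fixed by the choice. That most neighbours shared its mark is not fixed but is favoured by it. Every member lies on the mark, at a median of 3851.5 bp from its border, and 56 of the 65 neighbours were within 1 kb. In the whole list no pair of PCGF1 peaks lay closer than 197 bp, so how many peaks a stretch holds also depends on how the authors' calling joined or split it.

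The 490 members met 490 different RING1B peaks and 475 different H3K27me3 regions. Of these regions, 462 held 1 member, 11 held 2 and 2 held 3, and in 412 regions the member was the only PCGF1 peak of any kind. On a region with more than 1 RING1B peak lay 200 members (40.8%, 36.4 to 45.3), with up to 13 in a region, and 25.1% of single peaks did when only the 50% of RING1B peaks with the higher fold were used. The share was 50.8% in the clustered peaks and 41.6% over all PCGF1 peaks on the mark, so the members were at the general share. Of the 185 regions with a member and more than 1 RING1B peak, 172 held 1 member and 13 held 2 or more. One region with 3 members ran from 97375360 to 97452680 on chromosome 11 (77320 bp) and held 6 RING1B peaks. The PCGF1 folds there were 5.03, 4.51 and 5.84, in peaks of 1268, 168 and 696 bp. The other ran from 36260820 to 36384240 on chromosome 17 (123420 bp) with 8 RING1B peaks and had folds of 4.47, 5.51 and 2.86. In 2 members the RING1B peak itself touched no H3K27me3, and the PCGF1 peak bridged the gap between RING1B and the mark. Both were on chromosome 16, at 17208770 to 17209887 and at 93712364 to 93712573.

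The −log10 q and the fold of the members went together along a narrow line, with a small set of peaks off it. The median −log10 q was 2.28. A value of at least 5 was reached by 35 of 490 members, or 7.14% (5.03 to 9.79), where 2.49% of all PCGF1 peaks reached it, and by 3.26% of the single peaks outside H3K27me3 and 0 of 480 clustered peaks (a share of up to 0.766%). These were 35 of the 64 such peaks in the whole list. Yet their fold was low: the median was 4.08, and 24 of the 35 were below the median of all PCGF1 peaks. Among the 455 members under 5, the Spearman correlation of fold with −log10 q was 0.90, and over all 490 it was 0.65.

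**Figure D5:**
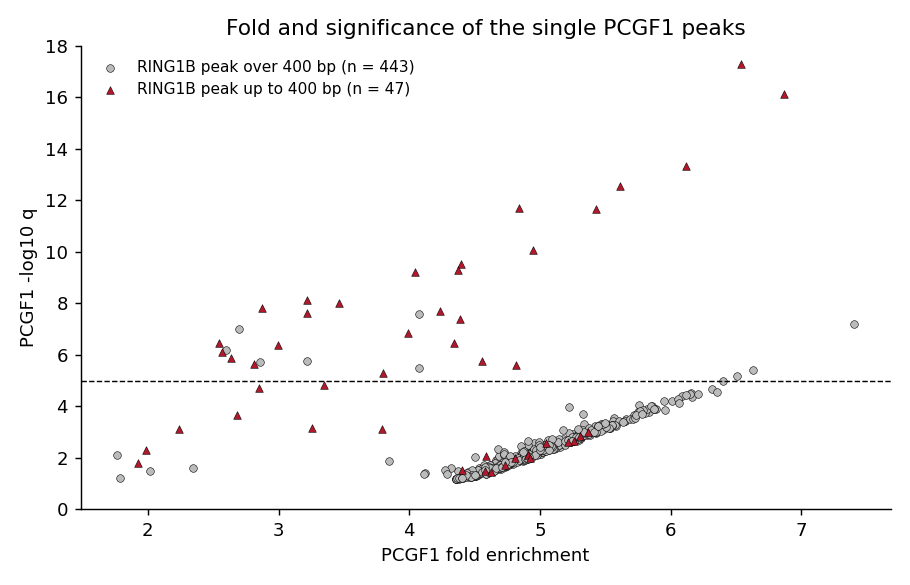
PCGF1 fold (x axis) and −log10 q (y axis) of the 490 members, each point 1 peak; triangles are the 47 members on RING1B peaks of up to 400 bp, circles the other 443, and the dashed line is at 5. Most members follow 1 line, and 26 of the 35 points at or above the dashed line are triangles.

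The members of high −log10 q sat on short RING1B peaks in narrow, tall H3K27me3 regions. This set was described after its values were seen. Of the 35, 26 (74.3%, 56.7 to 87.5) lay on RING1B peaks of up to 400 bp. That width was found under 47 of all 490 members (9.59%, 7.13 to 12.6) and in 24.9% of all RING1B peaks. Over all PCGF1 peaks on RING1B the share was 4.86% (3.94 to 5.91), and over the single peaks outside H3K27me3 it was 7.34% (5.40 to 9.70). Among the 47 members on such short RING1B peaks, 26 (55.3%, 40.1 to 69.8) had a −log10 q of at least 5, against 9 of 443 (2.03%, 0.933 to 3.82) on wider ones. For single peaks outside H3K27me3 on short RING1B peaks it was 12 of 45 (26.7%, 14.6 to 41.9). The choice bears on the comparison with the clustered peaks in −log10 q. Of the 480 clustered peaks, 0 lay on a RING1B peak of up to 400 bp, which has little room for 2 PCGF1 peaks. On wider RING1B peaks the members still reached 5 in 2.03% (0.933 to 3.82), against 0 of 480 clustered peaks (up to 0.766%). These 2 intervals did not overlap, and the part of the choice in this was not tested. The 35 members had a median PCGF1 width of 122 bp, a median RING1B width of 298 bp and a median RING1B fold of 2.91. All these medians were below those of the 455 members with −log10 q under 5, at 506 bp, 2884 bp and 3.62.

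The mark under the 35 differed from that under the other members too. The median region width was 2630 bp against 16200 bp, and the median height 350 against 155. A height of at least 400 was found for 16 of the 35 and for 9 of the other 455, in all 25 of 490 members (5.10%, 3.33 to 7.44). Of all H3K27me3 regions, 0.0768% were that tall. Over all PCGF1 peaks on the mark the share was 6.72% (5.42 to 8.22), with all 48 peaks of the dense block counted in it. It was 3.61% for PCGF1 peaks on the mark without RING1B and 0.833% for the clustered peaks. Lying on such a tall region was thus not particular to the members. The centres of PCGF1 and RING1B were a median of 16.5 bp apart in the 35 and 400.5 bp apart in the other 455 members. The PCGF1 centre was a median of 263 bp from the border of the mark, against 4195 bp. The medians thus describe short PCGF1 and RING1B peaks with nearly the same centre, near the border of a narrow and tall H3K27me3 region. Not all of the 35 were of this kind, since 9 lay on RING1B peaks over 400 bp and 11 were not below the median fold of the list. Their sequence and the background signal there were not analysed here, and the part of either in these values was not tested.

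Single sites were named by rank, the 10 highest in each of 4 measures, with positions in build mm9. A fold of 7.40, the top of the members for PCGF1, stood at 26249971 to 26251298 on chromosome 17, with a −log10 q of 7.18. The RING1B peak under it was modest, 778 bp wide with a fold of 2.91, and the region's height was 116. On chromosome X, a PCGF1 peak of 65 bp at 113400788 to 113400852 had a fold of 6.87 and a −log10 q of 16.1. On chromosome 15, a peak of 121 bp at 47371555 to 47371675 had a fold of 6.54 and a −log10 q of 17.3. Both of these lay on RING1B peaks of under 300 bp (254 and 280 bp). Of longer peaks, one of 2633 bp at 108795972 to 108798604 on chromosome 5 had a fold of 6.63 on a RING1B peak of 9973 bp. The 10 members of highest fold covered RING1B folds from 2.51 to 10.7.

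The strongest RING1B under a member was at 22161192 to 22164114 on chromosome 16, where a PCGF1 peak of 2923 bp with a fold of 6.15 lay in a RING1B peak of 17823 bp with a fold of 13.3. It was also the fourth widest PCGF1 peak of the members. On chromosome 10, at 40603298 to 40604594, the PCGF1 fold was 6.40 and the RING1B fold 10.7, in a RING1B peak of 12227 bp where the H3K27me3 region was 1140 bp wide. On chromosome 6, at 30908255 to 30909811, a PCGF1 fold of 6.51 stood in a RING1B peak of 39768 bp with a fold of 10.1. These last sites were the 2 shared by the highest lists for PCGF1 and for RING1B. Other strong RING1B peaks carried an ordinary single PCGF1 peak. At 43688899 to 43689176 on chromosome 19, for example, the RING1B fold was 9.70 and the PCGF1 fold 4.62, and at 73613301 to 73613993 on chromosome 2 they were 9.28 and 4.68.

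The 10 members on the tallest H3K27me3 regions shared none of their sites with the 3 other lists. The tallest, with a height of 1472, was under the PCGF1 peak at 3150785 to 3151545 on chromosome 6, where the PCGF1 fold was 2.70 and the RING1B fold 2.19. The next, at 166650103 to 166650254 on chromosome X, had a height of 1284 and folds of 1.93 and 2.37. At 3114951 to 3115115 on chromosome 16 the height was 1111 with folds of 2.35 and 1.80. Over the 10, PCGF1 fold ran from 1.93 to 4.84, all below the members' median of 4.90, and RING1B fold from 1.80 to 2.94, all below its median of 3.57. By fold, the 10 tallest regions thus lay under PCGF1 peaks below the members' median. The lack of shared sites adds little to this, since lists this short can share none by chance. The share to be met by chance was not computed. By −log10 q the 10 were mixed. Their median was 5.58, against 2.28 over all members, but they ran from 1.59 to 11.7. The member with the highest −log10 q, 17.3 on chromosome 15, was not among them. Sequence and background signal at the 10 sites were not analysed here, and their part in these heights and folds was not tested.

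The widest PCGF1 peak of the members, 5779 bp at 39979968 to 39985746 on chromosome 17, had the lowest fold of all 490, 1.77. Its RING1B peak was almost the same stretch, 5846 bp with a fold of 1.76. Sequence and background signal at this site were not analysed here, and their part in its width was not tested. The other wide peaks were of another kind. The second, 3765 bp at 73015189 to 73018953 on chromosome 8, had a fold of 5.77, and the third, 3328 bp at 52503900 to 52507227 on chromosome 5, a fold of 5.82 on a RING1B peak with a fold of 6.56. At 137506038 to 137508559 on chromosome 5 a PCGF1 peak of 2522 bp and a RING1B peak of 2357 bp had centres 1.5 bp apart. The median fold of the 10 widest was 5.75.

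Members were found on all 19 autosomes and on X. As a share of the PCGF1 peaks on RING1B of the same chromosome, they were most frequent among autosomes on chromosome 11, with 52 of 142 (36.6%, 28.7 to 45.1). They were least frequent on chromosome 19, with 18 of 136 (13.2%, 8.04 to 20.1), and the intervals of these 2 chromosomes, picked as the extremes, did not overlap. Chromosome 13 (11 of 77, 14.3%) and chromosome 14 (13 of 82, 15.9%) were also low. On X there were 5 among only 8.

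The overlap that admitted a member was small in a few cases. The 10 members with the fewest bases on RING1B shared 17 to 49 bp with it and had a median fold of 4.81, and the 10 with the fewest on H3K27me3 shared 3 to 49 bp and had a median fold of 4.65. Just outside the rule, the 10 PCGF1 peaks on H3K27me3 that came nearest to RING1B missed it by 3 to 29 bp, with a median fold of 4.71. The 10 single peaks on RING1B nearest to the mark missed it by 6 to 156 bp, with a median fold of 4.83. These 4 medians were close to each other. Most of the 613 single peaks outside H3K27me3 were not near misses, at a median of 4214 bp (interquartile range 1668 to 10074) from the mark.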

How the data were processed

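Peaks of 3 deposited lists were compared, each standing for 2 chromatin immunoprecipitation libraries. Bowtie2, SAMtools 1.6.0, Picard and the builds mm9 and dm3 are named, without a role, per the submitters' processing notes; positions were taken to be mm9. Which peak caller, threshold and control were used, and any pooling, is not given in the sources used here. The fold (a ratio over background) and the −log10 q were deposited by the authors in the broadPeak layout, as was a score that repeats the −log10 q and was not used. Height in the H3K27me3 list is a signal of unstated scale, per the file headers. Depth is unknown. Overlap was computed in Python 3.11.15 with pandas 2.3.3, NumPy 2.4.6 and SciPy 1.17.1, with 1 bp as the least overlap. Bedtools 2.31.1 gave the same 490 members, and the procedures were tested on simulated data. Each member met exactly 1 RING1B peak and 1 H3K27me3 region. Positions are 1-based, except that H3K27me3 regions keep the listed ones. Sites were named as the 10 highest members in PCGF1 fold, RING1B fold, H3K27me3 height and PCGF1 width. The members, lists and limits were chosen with earlier results of these data known. Genes, sequences and base composition were not analysed here, since the tables used belong to GRCm38.p6. Alternatives covered the overlap, −log10 q, RING1B strength and merging, region height, chromosomes and the definitions of shares.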

Additional observations from a re-analysis of the deposited data

How the results depend on the processing

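Of 103 recomputed medians and shares, 88 stayed within the interval of the reported value and 15 moved. The number of single peaks ran from 358 to 502, within 1.5 times of 490 in all 10 settings. When PCGF1 peaks needed a −log10 q of 2 or more (399 single peaks) the median fold was 5.11, the median width 746 bp, the median H3K27me3 height 166, and the share with a neighbour within 5 kb 4.51%. With the 50% of RING1B peaks of higher fold (358 single peaks) the median RING1B fold was 3.93, its width 3758.5 bp, the H3K27me3 width 17335 bp, and the share on regions with more than 1 RING1B peak 25.1%. That last share was 31.0% with RING1B peaks within 1 kb merged. The share wholly inside the mark was 92.1% with 50% of the PCGF1 peak covered by each list and 92.0% when 80% of bases counted as inside. The share in the middle 50% of RING1B was 69.9% with 50% covered, and 48.8% of members fell in a middle zone narrowed from 50% to 33.3%. A neighbour within 20 kb was found for 19.2%. Without members on RING1B peaks of up to 400 bp (443 members), an alternative chosen after seeing the data, the RING1B width was 3089 bp. None of the 10 medians and shares moved without chromosome 8, without chromosome 19, with the dense block kept in, with the taller 50% of H3K27me3 regions, or, chosen after seeing the data, with members of −log10 q of 5 or more left out. No paired analysis was possible because the lists do not separate their libraries and carry no replicate numbers. Unknown depth limits all 3 lists, since a shallow library gives fewer and shorter peaks and may leave a second PCGF1 peak on a RING1B peak uncalled.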
